A study of Monascus purpureus with 6 samples.

Results

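SOD2 (gene-MAP00_003523) and TRR1 (gene-MAP00_006270) are 2 of the 9836 genes counted in mycelia of the filamentous fungus Monascus purpureus, which is known for its red pigments. They were picked by name from an earlier look at the same libraries, because the level of SOD2 differed widely between the growth conditions and that of TRR1 barely did. The difference of each between the conditions is therefore a description here and carries no test. Of the 9836 genes 9048 passed the filter on low counts and were tested, both of these among them.

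All 6 libraries came from mycelia of the wild-type strain MP2022 at day 1. The metal-ion group (3 libraries) received MgSO4·2H2O at 2.5 g/L with ZnSO4·2H2O at 0.0 g/L, a setting that the titles call optimized for metal ions. The control group (3 libraries) carries a label that names MgSO4·2H2O at 1.0 g/L with ZnSO4·2H2O at 2.0 g/L after the word untreated, so it does not settle whether the control medium contained those amounts. Both salts differ between the labels, and an effect of zinc cannot be told apart from an effect of magnesium. The series set out to find a zinc to magnesium ratio that suits both ethanol and pigment production. The labels do not state that replicates were grown as separate cultures; p-values then measure only the spread between these libraries, which may be technical. In bulk RNA of this kind, fewer cells that express a gene and less of its RNA per cell cannot be told apart.

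Superoxide dismutases turn the superoxide radical, a by-product of respiration, into oxygen and hydrogen peroxide. In budding yeast SOD2 names the manganese enzyme of the mitochondrial matrix, whereas the copper-zinc enzyme of the cytosol is SOD1. Hydrogen peroxide is then removed by catalases, by haem and glutathione peroxidases and by peroxiredoxins. Many peroxiredoxins are recharged by thioredoxin, and thioredoxin reductase, which TRR1 names in budding yeast, passes electrons from NADPH to oxidized thioredoxin. The annotation pairs these locus tags with symbols alone, and neither the metal nor the cell compartment of the SOD2 enzyme in this fungus was analysed here.

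Total counts ran from 35314601 to 38927910 in metal-ion libraries and from 33638067 to 36537672 in control libraries. Of 9048 tested genes 1084 (12.0%) changed, 603 upward (6.66%) and 481 downward (5.32%), at an adjusted p under 0.05 in edgeR's quasi-likelihood test with Benjamini-Hochberg adjustment. Scaling by total counts alone gave 860 upward and 344 downward, and limma on log2(FPKM + 1) gave 782 and 328. The number of changed genes was 2829 without metal-ion replicate 2 and between 348 and 472 without any other single library. Replicate 2 stands apart within the metal-ion group: in a principal component analysis of log2 CPM, it scored 9.78, against 30.4 and 31.8 for the other metal-ion libraries and -27.9 to -21.3 for control libraries on the first component, which held 48.6% of the variance.

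SOD2 held 22134, 25889 and 27553 counts in metal-ion replicates 1, 2 and 3, against 290, 341 and 456 counts in control replicates 1, 2 and 3. Scaled to library size with TMM factors, this was 565, 678 and 758 CPM in metal-ion libraries and 8.85, 9.81 and 14.0 CPM in control libraries. All 3 metal-ion libraries stood far above all 3 control libraries, and the lowest metal-ion value was 40.3 times the highest control value. The highest metal-ion value was 85.6 times the lowest control value. Group means were 667 ± 96.7 CPM in metal-ion and 10.9 ± 2.76 CPM in control mycelia (SD, n = 3 each). The fitted log2 fold change was 5.94 ± 0.21 (SE), or 61.2-fold. This was the 4th highest log2 fold change of the 9048 tested genes.

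TRR1 held 6077, 6860 and 5726 counts in metal-ion replicates 1, 2 and 3, against 5831, 6449 and 5703 counts in the control replicates. Its scaled level was 155, 179.5 and 157 CPM in metal-ion libraries and 178, 186 and 176 CPM in control libraries. The groups overlapped: metal-ion replicate 2 lay within the control range, and metal-ion replicates 1 and 3 lay below it. Means were 164 ± 13.4 CPM in metal-ion and 179.7 ± 5.24 CPM in control mycelia (SD, n = 3 each). The fitted log2 fold change was -0.13 ± 0.10 (SE), 0.913-fold. Of all tested genes, 32.4% had a smaller change in size than TRR1, so it was no flatter than many other genes. Without metal-ion replicate 2 its log2 fold change was -0.21.

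**Figure D1:**
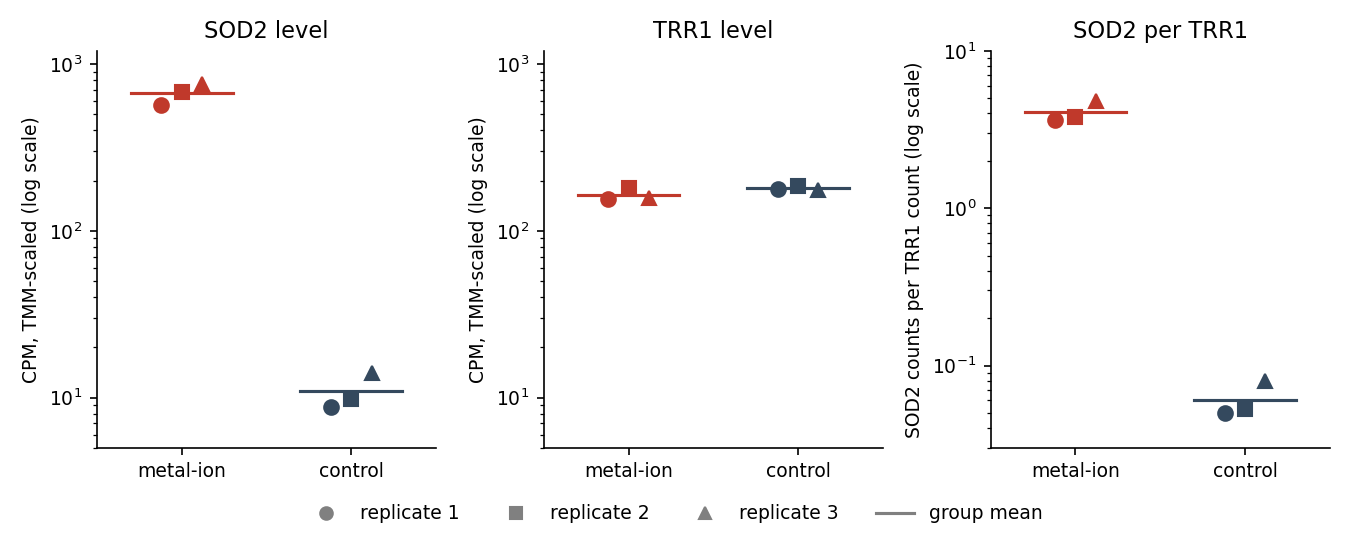
Level of SOD2 and of TRR1 in CPM with TMM scaling and SOD2 counts per TRR1 count, each on a log axis, in 3 metal-ion and 3 control libraries; symbols mark replicates and lines mark group means. SOD2 sits at 565 to 758 CPM in metal-ion and 8.85 to 14.0 CPM in control libraries, while TRR1 lies between 155 and 186 CPM in all 6.

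How TRR1 is placed against control depended on the scaling. TMM gave metal-ion replicate 1 the largest factor, 1.11, which lowers its CPM. In the deposited FPKM, which divide by gene length and library total, TRR1 stood at 147, 149 and 137 in metal-ion libraries and at 146, 149.5 and 144 in control libraries. On that scale only metal-ion replicate 3 lay outside the control range, below it. With total-count scaling the log2 fold change of TRR1 was -0.02, while the median of all tested genes was 0.14 in place of 0.03 with TMM. Relative to that median, TRR1 was at -0.16 under both scalings and SOD2 at 5.91 with TMM and 5.90 with total counts.

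A ratio of both genes within a library needs no scaling between libraries. There were 3.64, 3.77 and 4.81 SOD2 counts per TRR1 count in metal-ion replicates 1, 2 and 3. The control replicates gave 0.0497, 0.0529 and 0.0800. Each metal-ion library thus held more counts of SOD2 than of TRR1, and each control library fewer. Per length, the ratio of FPKM was 6.32, 6.54 and 8.34 in metal-ion and 0.0861, 0.0916 and 0.138 in control libraries. The lengths that the deposited counts and FPKM imply were 676 to 686 bases for SOD2 and 1173 to 1188 bases for TRR1.

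SOD2 was a gene of middle level in control mycelia and among the most abundant ones in metal-ion mycelia. By FPKM it ranked 109, 131 and 83 of 9836 genes in metal-ion replicates 1, 2 and 3, against 5084, 4822 and 4030 in the control replicates. TRR1 kept to a narrow band of ranks, 769, 725 and 820 in metal-ion and 709, 692 and 732 in control libraries. Among tested genes, 304 averaged over 500 CPM in metal-ion mycelia, and 3 of these averaged under 20 CPM in control: SOD2, its neighbour MAP00_003524 and MAP00_002307. The means of SOD2 lie within these cut-offs and SOD2 was picked for this difference, so its place among the 3 is a description only. Of all counts, SOD2 took 0.0626, 0.0665 and 0.0780% in the metal-ion libraries and 0.000862, 0.000933 and 0.00135% in the control libraries. Exact Clopper-Pearson 95% intervals, which cover counting error only, ran from 0.0618 to 0.0634% for metal-ion replicate 1 and from 0.000766 to 0.000967% for control replicate 1.

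**Figure D2:**
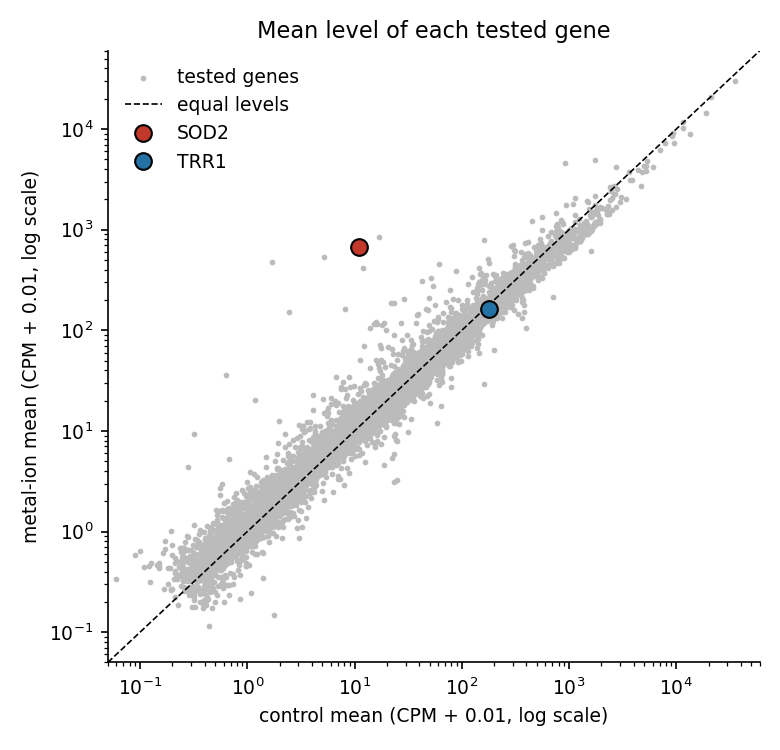
Mean level of each tested gene in 3 metal-ion libraries (vertical) against 3 control libraries (horizontal), in CPM + 0.01 on log axes; each grey point is 1 of 9048 genes and the dashed line marks equal levels. SOD2 lies far above the line, at 667 CPM in metal-ion and 10.9 CPM in control mycelia, and TRR1 lies close to it.

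The spread between libraries was larger than counting error for both genes. The coefficient of variation of SOD2 was 14.5% in metal-ion and 25.3% in control libraries, while counting error was at most 0.672% and 5.87% of a single value. In metal-ion libraries SOD2 varied about as much as other genes of its level: 49.8% of 239 tested genes within 1.5-fold of its mean had a larger coefficient of variation. In control libraries 4.83% of 993 such genes did. Control replicate 3 held the highest SOD2 level of its group, at 14.0 CPM, and without it the log2 fold change was 6.16. TRR1 varied by 8.19% in metal-ion and 2.92% in control libraries, with a counting error of at most 1.32%. Of genes of its level, 60.2% of 1015 in metal-ion and 77.7% of 916 in control libraries varied more.

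Metal-ion replicate 2, the library of its group nearest to control on the first principal component, was not the nearest for SOD2. At 678 CPM it lay between replicates 1 and 3, and the log2 fold change of SOD2 without it was 5.92.

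Genes around both members were taken from 11 lists of symbol patterns grouped by role. Patterns for sulfoxide repair, stress regulators and spore development matched no symbol, and genes without a symbol were not sorted into lists. Outside SOD2 and TRR1, 34 genes matched and all were tested: 4 rose (PRX1, NAR1, ATM1 and AOX1_3), 1 fell (SID4) and 29 did not pass. Over all tested genes 12.0% were called, so 5 of 34 is close to the background. The median log2 fold change of the 34 was -0.06, against 0.03 over all tested genes. CPM did not overlap between the groups in 9 of the 34, against 33.3% of all tested genes. Without metal-ion replicate 2, 15 of the 36 genes passed, SOD2 included, 5 upward and 10 downward, where 14.4% and 16.5% of all tested genes did.

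No other superoxide dismutase carried a symbol. Of genes that act on hydrogen peroxide, CTA1, which names a peroxisomal catalase in budding yeast, stood at 66.7, 110.3 and 70.3 CPM in metal-ion and 67.3, 68.0 and 78.3 CPM in control libraries. Only metal-ion replicate 2 lay above the control range, and CTA1 missed the threshold, with a log2 fold change of 0.21 ± 0.17 (edgeR adjusted p = 0.454). CCP1, named for the mitochondrial cytochrome c peroxidase, stood at 162, 256 and 169 CPM in metal-ion and 209, 237 and 186 CPM in control libraries and missed the threshold, with a log2 fold change of -0.11 ± 0.17 (edgeR adjusted p = 0.718). Its highest value was in metal-ion replicate 2 and both other metal-ion libraries lay below control. Without that replicate CCP1 passed at a log2 fold change of -0.35 (edgeR adjusted p = 0.0247).

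PRX1, a peroxiredoxin of mitochondria in budding yeast, rose. It stood at 182, 249 and 202 CPM in metal-ion and 136, 139 and 128 CPM in control libraries, without overlap. Its log2 fold change was 0.65 ± 0.12 (edgeR adjusted p = 0.00790), and it lost its call without control replicate 3 (edgeR adjusted p = 0.0517). GPX1, named for a glutathione peroxidase, averaged 175 ± 28.8 CPM in metal-ion and 150.1 ± 6.03 CPM in control mycelia (SD, n = 3 each) and missed the threshold at 0.22 ± 0.12 on the log2 scale (edgeR adjusted p = 0.255). Its groups did not overlap, but the lowest metal-ion value, 157.8 CPM, was close to the highest control value, 156.9 CPM.

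A pair of genes whose symbol ASPF3 is that of a peroxiredoxin allergen of Aspergillus fumigatus lay outside the patterns and was added once the symbols were seen. Of the antioxidant genes named here, ASPF3_2 was the most abundant. It stood at 2007, 2265 and 2149.5 CPM in metal-ion and 1621, 1736 and 1851 CPM in control libraries. Every metal-ion library was above every control library, but its log2 fold change of 0.30 ± 0.12 missed the threshold (edgeR adjusted p = 0.113). It passed in DESeq2, with total-count scaling, in limma on FPKM and without metal-ion replicate 2, with an adjusted p of 0.0169 to 0.349 over all alternatives. ASPF3_1 did not pass, at 98.4 ± 10.1 CPM in metal-ion and 107 ± 6.55 CPM in control mycelia (SD, n = 3 each; log2 fold change -0.12 ± 0.10).

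TRX1, which names thioredoxin, the protein that thioredoxin reductase recharges, stood at 199, 245 and 225 CPM in metal-ion and 226, 237 and 228 CPM in control libraries. The groups overlapped and its log2 fold change of -0.05 ± 0.10 missed the threshold (edgeR adjusted p = 0.804); the sign changed among the other settings, from -0.12 to 0.06. In both TRX1 and TRR1, metal-ion replicate 2 was the highest of its group. GRX5, a mitochondrial glutaredoxin of iron-sulfur cluster assembly in budding yeast, stood at 63.3, 87.4 and 65.3 CPM in metal-ion and 89.3, 99.7 and 87.3 CPM in control libraries. Its log2 fold change of -0.35 ± 0.13 missed the threshold (edgeR adjusted p = 0.101), but it passed without metal-ion replicate 2 (log2 fold change -0.52, edgeR adjusted p = 0.000895). GND1, named for a dehydrogenase that supplies NADPH, averaged 1385 ± 60.5 CPM in metal-ion and 1588 ± 16.0 CPM in control mycelia (SD, n = 3 each) and missed the threshold at -0.20 ± 0.11 on the log2 scale (edgeR adjusted p = 0.251). All its metal-ion libraries were below all control libraries, and without metal-ion replicate 2 it passed (log2 fold change -0.22, edgeR adjusted p = 0.0382). GDH1, a glutamate dehydrogenase gene in budding yeast, did not pass either (log2 fold change -0.08 ± 0.13).

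On the list for metal handling, ATM1 and NAR1 rose. ATM1, a mitochondrial transporter that serves iron-sulfur cluster assembly in budding yeast, stood at 66.3, 60.1 and 55.1 CPM in metal-ion and 34.0, 39.5 and 31.1 CPM in control libraries. Its log2 fold change was 0.80 ± 0.12 (edgeR adjusted p = 0.00201). NAR1, of cytosolic iron-sulfur cluster assembly, stood at 73.3, 62.0 and 59.7 CPM in metal-ion and 44.8, 41.5 and 43.0 CPM in control libraries (log2 fold change 0.59 ± 0.10, edgeR adjusted p = 0.00581). It lost its call without control replicate 2 (edgeR adjusted p = 0.0546). In neither gene did the groups overlap. ISU1, the scaffold on which the clusters are built, did not pass, at 0.02 ± 0.10 on the log2 scale (edgeR adjusted p = 0.914). SID4, which entered the list by symbol alone and whose product is not known here, fell, to 7.95 ± 2.48 CPM in metal-ion, against 16.2 ± 1.84 CPM in control mycelia (SD, n = 3 each; log2 fold change -1.03 ± 0.22, edgeR adjusted p = 0.0153), and lost its call without metal-ion replicate 3 or control replicate 1 or 3 (highest edgeR adjusted p = 0.0729).

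**Figure D3:**
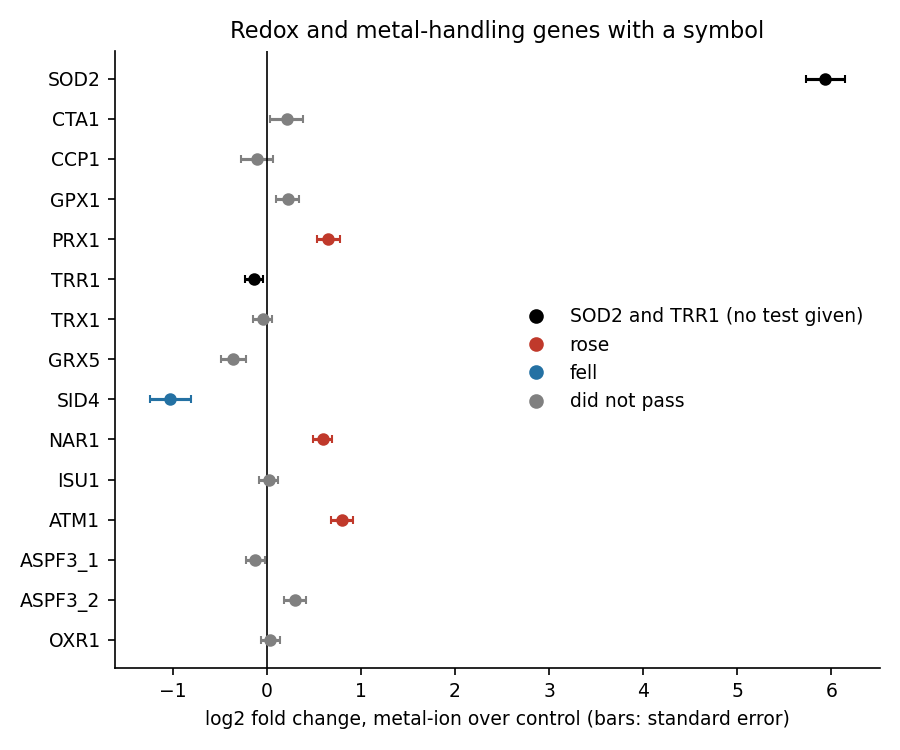
Log2 fold change, metal-ion over control, with its standard error, of SOD2, TRR1 and genes of the redox and metal-handling lists, matched by symbol alone. The lists for NADPH supply and the respiratory chain, AOX1_3 included, are not shown. ASPF3_1, ASPF3_2 and OXR1, which were added later, are shown. SOD2 at 5.94 stands apart, PRX1, NAR1 and ATM1 rose by 0.59 to 0.80, SID4 fell, and TRR1 at -0.13 lies among genes that did not pass.

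The list for the respiratory chain, where superoxide arises, was the largest. Of its 22 genes 1 rose, AOX1_3, 0 fell and 21 did not pass, where 6.66% of all tested genes rose and 5.32% fell, so these counts are near the background. The AOX1 genes entered the list by symbol alone, and since that symbol is used for more than one enzyme in fungi, their place in the respiratory chain is uncertain. For 0 that fell, 0 genes with a negative log2 fold change had an unadjusted p under 0.05 in edgeR, and DESeq2 and limma on log2(FPKM + 1) called 0. AOX1_3 stood at 175, 134 and 173 CPM in metal-ion and 46.8, 40.5 and 58.1 CPM in control libraries (log2 fold change 1.73 ± 0.15, edgeR adjusted p = 4.45e-05). AOX1_1 and AOX1_2, which share its symbol, averaged under 10 CPM in both groups and did not pass. The 3 most abundant members that did not pass were subunits of cytochrome c oxidase, with log2 fold changes of -0.01 ± 0.11 for COX5, 0.02 ± 0.12 for COX4 and -0.08 ± 0.13 for COX6. Without metal-ion replicate 2, SDH1 of succinate dehydrogenase fell by 0.42 on the log2 scale and CYT1, named for cytochrome c1, by 0.44, with NUO31, NUO40, NUO49 and NUO51 of complex I at -0.31 to -0.24. Their edgeR adjusted p ran from 0.00221 for CYT1 to 0.0448 for NUO40. In that fit 16.5% of all tested genes fell, so a fall was common there. No other gene of the 22 fell in it, and whether the list fell more often than other genes was not tested.

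Levels per length place both members among the antioxidant genes named here. With OXR1, named for an oxidation resistance protein, 11 genes were ordered by mean FPKM. All were picked by symbol, so antioxidant genes without a symbol have no place in this order. In metal-ion mycelia SOD2 was the 2nd at 1015 ± 116 FPKM, below ASPF3_2 at 2074 ± 12.5 FPKM and above TRX1 at 654 ± 24.7 FPKM, with no overlap between libraries of genes adjacent in that order. In control mycelia SOD2 was the 11th and lowest at 15.4 ± 3.94 FPKM, below OXR1 at 31.3 ± 2.26 FPKM in every library. Since SOD2 was picked for its difference between the groups, its change of place is a description only. TRR1 was the 7th in metal-ion mycelia at 144 ± 6.11 FPKM and the 6th in control at 146 ± 2.92 FPKM. In both groups it could not be separated from ASPF3_1, at 142 ± 5.44 FPKM in metal-ion and 143 ± 7.35 FPKM in control mycelia (SD, n = 3 for each mean). In control GRX5, at 149.6 ± 9.36 FPKM, also overlapped TRR1. The metal-ion mean of GRX5 was below those of TRR1 and ASPF3_1, at 126 ± 16.5 FPKM, but its libraries overlapped those of both genes. PRX1 was the 5th in metal-ion mycelia, above TRR1 at 186 ± 19.1 FPKM, and the 8th in control, below TRR1 at 109.9 ± 4.15 FPKM.

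The neighbours of both genes in the annotation were compared, 5 on each side. Around SOD2, 9 of 10 were tested and 4 rose, all on the side of higher locus tags, with 0 that fell, where 6.66% of all tested genes rose and 5.32% fell. MAP00_003522, next to SOD2 on the other side, had at most 0.0825 CPM in any library and was not tested. MAP00_003524 stood at 434, 508 and 669 CPM in metal-ion and 3.17, 5.61 and 6.68 CPM in control libraries (log2 fold change 6.70 ± 0.28). MAP00_003525 followed at 52.2, 51.7 and 70.7 CPM in metal-ion and 23.1, 27.3 and 25.3 CPM in control libraries (log2 fold change 1.20 ± 0.14, edgeR adjusted p = 0.000363). Next came MAP00_003526 with a log2 fold change of 0.49 ± 0.09 (edgeR adjusted p = 0.00980) and MAP00_003527 with 0.75 ± 0.20 (edgeR adjusted p = 0.0404). MAP00_003526 lost its call without control replicate 1 or 2 (highest edgeR adjusted p = 0.0659). MAP00_003527 lost it in 4 of the 6 fits that left out a library, those without metal-ion replicate 1 or 3 and those without control replicate 1 or 2 (highest edgeR adjusted p = 0.175). Its groups overlapped. Its model also overlaps that of MAP00_003528, and since the counting is not stated to use strand, reads of the pair may be mixed. The change in MAP00_003528 did not pass (log2 fold change 0.17 ± 0.17). On the lower side MAP00_003518 to MAP00_003521 had log2 fold changes of 0.06 to 0.18 and did not pass. The models of MAP00_003519 to MAP00_003522 overlap others too, so their reads may also be mixed. The model of SOD2 itself overlaps no other.

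Around TRR1, all 10 neighbours were tested and 0 were called by edgeR, where 0 had an unadjusted p under 0.05 and DESeq2 and limma on log2(FPKM + 1) called 0. With 12.0% called over all tested genes, 0 of 10 is near the background. Their log2 fold changes ran from -0.36 to 0.12, against quartiles of -0.18 and 0.27 over all tested genes. MAP00_006271, next to TRR1, was at -0.19 ± 0.10 and MAP00_006269, on its other side, at 0.02 ± 0.16. HTS1, which names the histidine tRNA ligase, stood at 186.4, 186.4 and 183 CPM in metal-ion and 200.3, 211 and 209 CPM in control libraries, without overlap, yet its log2 fold change of -0.16 ± 0.09 missed the threshold (edgeR adjusted p = 0.258).

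**Figure D4:**
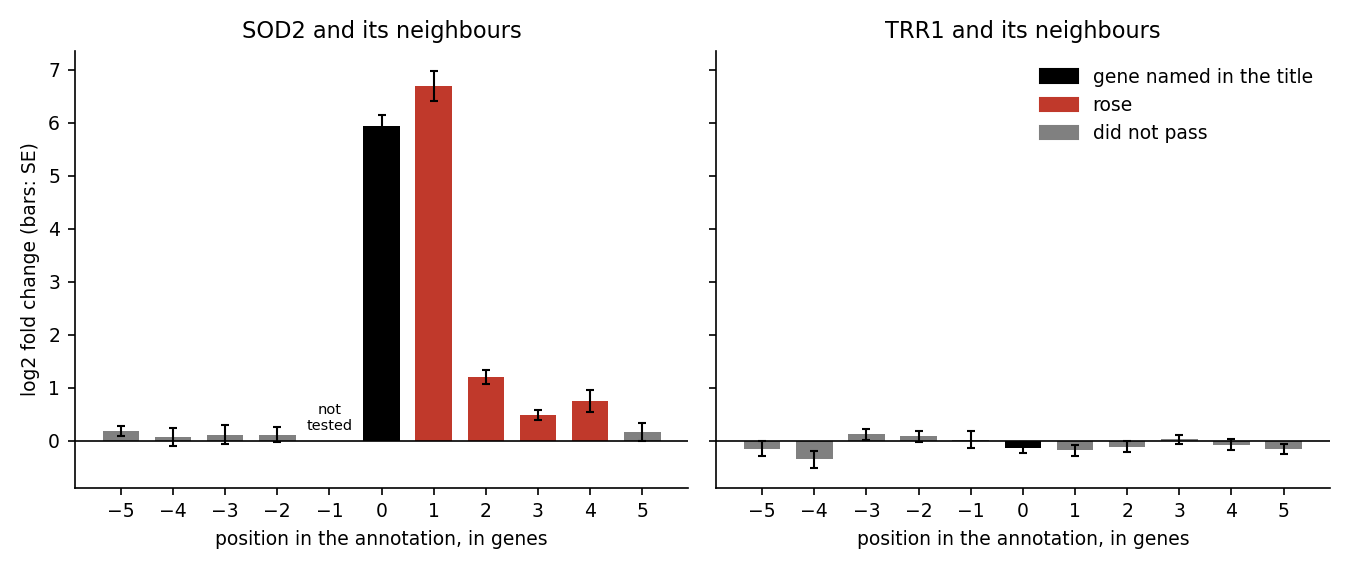
Log2 fold change, metal-ion over control, with its standard error, of SOD2 and TRR1 (position 0) and of the 5 genes on each side in annotation order, with higher locus tags to the right. The 4 neighbours of SOD2 at positions 1 to 4 rose, by 6.70, 1.20, 0.49 and 0.75, while those of TRR1 lie between -0.36 and 0.12.

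Likeness of pattern was measured as the root mean square distance between log2 CPM profiles over the 6 libraries, each centred on its control mean, among the 6986 other genes that averaged 5 CPM or more. The 5 genes nearest to SOD2 were MAP00_002306 at a distance of 0.086, MAP00_002307 at 0.24, MAP00_003524 at 0.59, MAP00_002308 at 0.65 and MAP00_004002 at 0.75. MAP00_002306 and MAP00_004002 reached the 5 CPM average only through the metal-ion group, since they averaged 2.46 and 0.628 CPM in control. The measure depends on the size of the fold change, so it lists genes that were chosen for a difference like that of SOD2 and is a description only. MAP00_002306 stood at 134, 150.03 and 176 CPM in metal-ion and 2.23, 2.22 and 2.92 CPM in control libraries, a lower level than SOD2 with nearly the same ratios. MAP00_002307 stood at 734, 792 and 1001 CPM in metal-ion and 15.5, 14.1 and 21.1 CPM in control libraries. MAP00_004002 overlaps a neighbouring model, so its reads are uncertain.

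The 5 genes nearest to TRR1 were MAP00_009066, MAP00_007531, MAP00_001656, MAP00_003470 and MAP00_006756, at distances of 0.021 to 0.028. A gene with a small fold change lies near many others by this measure, and 91 genes lay within 0.05 of TRR1. MAP00_001656 also shared its level in CPM, at 148, 174 and 155 CPM in metal-ion and 178, 180.03 and 168 CPM in control libraries.

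**Figure D5:**
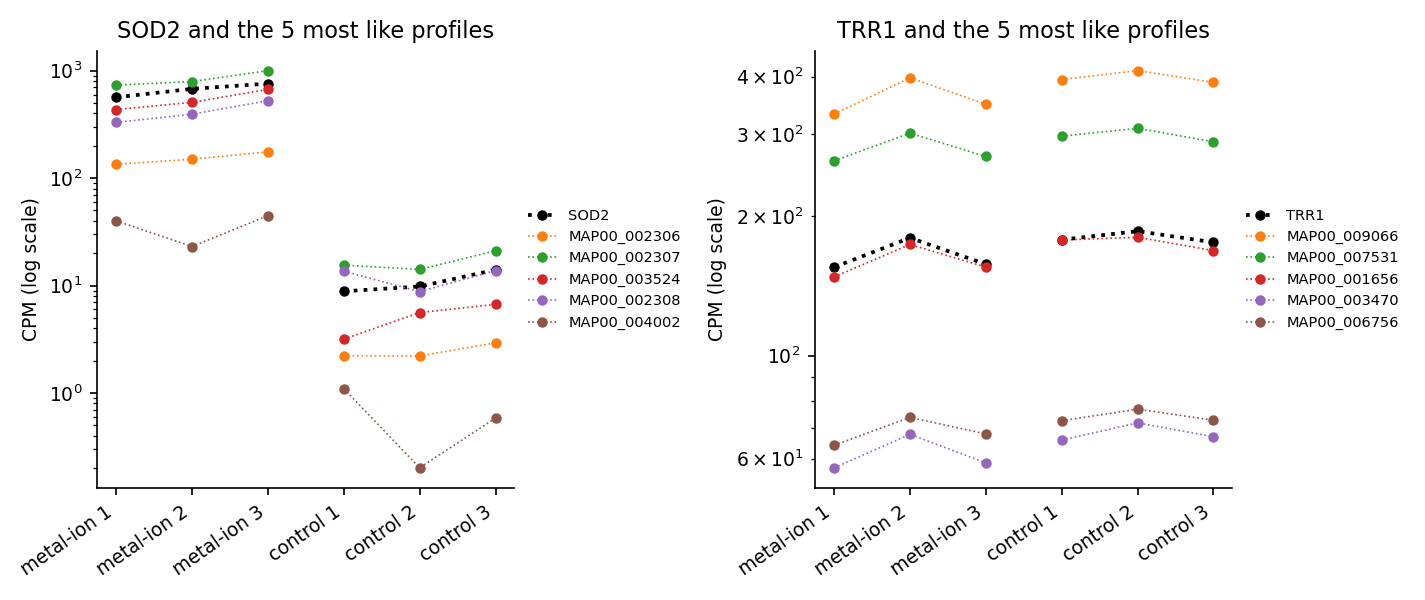
Level in CPM on log axes, by library, of SOD2 (left) and TRR1 (right) in black and of the 5 genes with the most similar profiles in colour; dotted lines join libraries of a group to guide the eye and imply no order. The SOD2 panel shows metal-ion levels far above control for all 6 genes, and the TRR1 panel shows nearly level profiles; both follow from the choice by likeness.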

How the data were processed

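RNA of 6 mycelial libraries was taken with TRIzol, enriched for mRNA and made into libraries with a NEBNext Ultra kit, per the labels' protocols, which name no step that marks strand. TopHat2 was used, per the submitters' processing notes; no source used here gives the counting tool, build or annotation. Whole-number counts per gene were deposited by the authors, as were FPKM values of the same genes (scaled to gene length and library size). Symbols, gene order and model overlaps came from the RefSeq table of assembly ASM2599979v1, which gave a symbol to 882 genes; no coordinates are given and no sequences were used here.

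Counts were tested with edgeR 4.0.16 in R 4.3.3 (quasi-likelihood, TMM, default low-count filter, two-sided, Benjamini-Hochberg over 9048 genes, called at adjusted p under 0.05). Standard errors came from the fold change and F. The fit was tested on simulated data. Alternatives were other scalings and filters, DESeq2 1.42.0, limma 3.58.1 on log2(FPKM + 1) and log2(FPKM + 0.1), the replicate number as a block and the removal of each library.

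The members, lists and alternatives were chosen with earlier results of these data known. Named genes are both members, called genes of the symbol lists with up to 3 uncalled ones of highest level per role, 5 neighbours on each side and the 5 most alike profiles; ASPF3_1, ASPF3_2 and OXR1 were added after the symbols were seen.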

Additional observations from a re-analysis of the deposited data

How the results depend on the processing

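The log2 fold change of SOD2 was 5.81 to 6.16 when 1 library was left out and moved by less than the spread between replicates in all 14 alternatives. That of TRR1 was negative in all 14, at -0.21 to -0.10 when 1 library was left out; it was -0.025 with total-count scaling and -0.022 in limma on both log2(FPKM + 1) and log2(FPKM + 0.1), settings under which the median of all genes was 0.14, 0.12 and 0.13. The number of changed genes was 348 to 2829, and of changed genes on the symbol lists 4 to 15, when 1 library was left out. Whether the replicate numbers pair the libraries is not settled. Same-numbered deviations correlated at 0.0155, 0.141 and 0.033, and those of different numbers at -0.137 to 0.1. Metal-ion replicate 1 correlated about equally with control replicate 3 (0.0171) and control replicate 1 (0.0155). With the replicate number as a block, SOD2 was at 5.95, TRR1 at -0.13, and 1365 genes changed, 7 of them on the lists, GRX5 being the added one. Of 13 genes called besides SOD2 under the rule for named genes, 8 kept their call in all 14 alternatives. These 8 include the 5 genes nearest to SOD2 in profile, which were chosen for a difference like that of SOD2. Their kept calls are a description only. Of 34 not called under that rule, 5 passed in at least 1 alternative. These 34 include the 5 genes nearest to TRR1, chosen for profiles like that of TRR1. SDH1, CYT1, NUO31, NUO40, NUO49 and NUO51 lie outside the 34 and passed without metal-ion replicate 2. Because 3 libraries a group allow no exact permutation p under 0.1, no single value was tested that way.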
